A study of Mus musculus with 6 samples.

Results

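Oxidative phosphorylation subunits were compared between J110 and SSM3 cells, both mouse mammary tumour lines, as 99 protein-coding genes of the 52636 genes counted. Genes were taken by symbol from the families Nduf, Sdh, Uqcr, Cox4 to Cox8 and Atp5, with Cyc1, Cycs and the mitochondrially encoded protein genes, which gave 86 nuclear-encoded and 13 mitochondrially encoded genes. The rule used symbols and no measured value. The symbol rule also took Atp5s, which is a factor that couples the ATP synthase rather than a subunit, and Cox7a2l, a supercomplex factor, and it left out subunits with other names, such as Ndufab1.

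J110 cells came from transgenic mice in which the MMTV LTR drove an AIB1 cDNA, and SSM3 cells came from mammary tumours of 129SvEv mice. Each line was a single cultured line without treatment, with 3 biological replicates per line. The lines were grown in media that differed in serum, glutamine, β-mercaptoethanol and transferrin, and SSM3 cells were kept at a higher CO2 level, so line, mouse strain and culture cannot be told apart. Libraries were QuantSeq 3′ mRNA libraries, which count reads near the 3′ end of polyadenylated RNA, and held 4200785 to 5416305 counts. Ncoa3, the gene for AIB1, was 1.88-fold higher in the libraries labelled SSM3 (110, 106 and 102 against 181, 199 and 186 counts, adjusted p = 2.94e-06), although a transgene cDNA need not be counted under the mouse gene. No altered gene checks the labels here, so every direction below follows them.

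Of markers of other cell types, 6 of 6 fibroblast, 5 of 5 erythroid and 5 of 5 adipocyte markers were too low to test, and so were 4 of 5 endothelial and 5 of 6 leukocyte markers. Those tested, Cdh5 (836, 790 and 856 counts against 0, 2 and 0) and Cd68 (115, 95 and 70 against 9, 5 and 6), were higher in J110, with Pecam1 at 0 to 4 counts and Ptprc at 0 to 2. Epithelial markers were called higher in SSM3 for 6 of 7 genes, and the defining marker Epcam had 2, 1 and 7 counts in J110 and 2376, 2404 and 2412 in SSM3, so the epithelial label had little support from Epcam in J110 cells. Krt8 and Krt18 were high in both lines. A ribosomal RNA locus took 15.1% to 17.2% of counts in J110 libraries and 0.779% to 1.27% in SSM3 libraries, so sums over members are given as shares of all counts and of protein-coding counts.

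In this pathway, electrons from NADH and succinate enter the inner mitochondrial membrane at complexes I and II, pass through ubiquinone to complex III and through cytochrome c to complex IV, where oxygen is reduced. Complexes I, III and IV pump protons, and complex V, the ATP synthase, uses the gradient to make ATP. Mitochondrial DNA encodes core membrane subunits of complexes I, III, IV and V, whereas all subunits of complex II are nuclear-encoded, so the complexes are assembled from the products of both genomes.

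Nuclear-encoded subunits were mostly higher in SSM3 cells, and the mitochondrially encoded ones went in both directions. Of the 99 genes, 91 passed the filter on low counts and 8 did not. At an adjusted p threshold of 0.05, 62 members were higher in SSM3, 7 were lower and 22 had no call. Over all 12284 genes tested, 38.6% were called higher and 39.2% lower, and the members stood at 68.1% and 7.69%. Among the 80 nuclear-encoded members tested, 58 were higher, 5 lower and 17 had no call, with a median log2 fold change of 0.85 (1.80-fold) against -0.014 over all genes tested. Among the 11 mitochondrially encoded members tested, 4 were higher, 2 lower and 5 had no call, with a median of -0.19. These values moved with single libraries and with the scaling. The median was 0.0050 without SSM3 replicate 1, -0.098 without J110 replicate 2 and -0.018 with scaling by library size only, 2 were higher without SSM3 replicate 2, and 4 were lower without SSM3 replicate 3. At least 2-fold higher calls were made for 30 nuclear-encoded members (37.5%, against 21.2% of all genes tested) and for 0 mitochondrially encoded ones. At least 2-fold lower calls were made for 2 nuclear-encoded and 2 mitochondrially encoded members, against 22.5% of all genes tested. The libraries of the lines did not overlap for 63 of the 80 nuclear-encoded members, a share of 78.8% that is close to the 79.6% of all genes tested, and 59 of those 63 were higher in SSM3 (39.4% of all genes tested were higher without overlap).

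**Figure D1:**
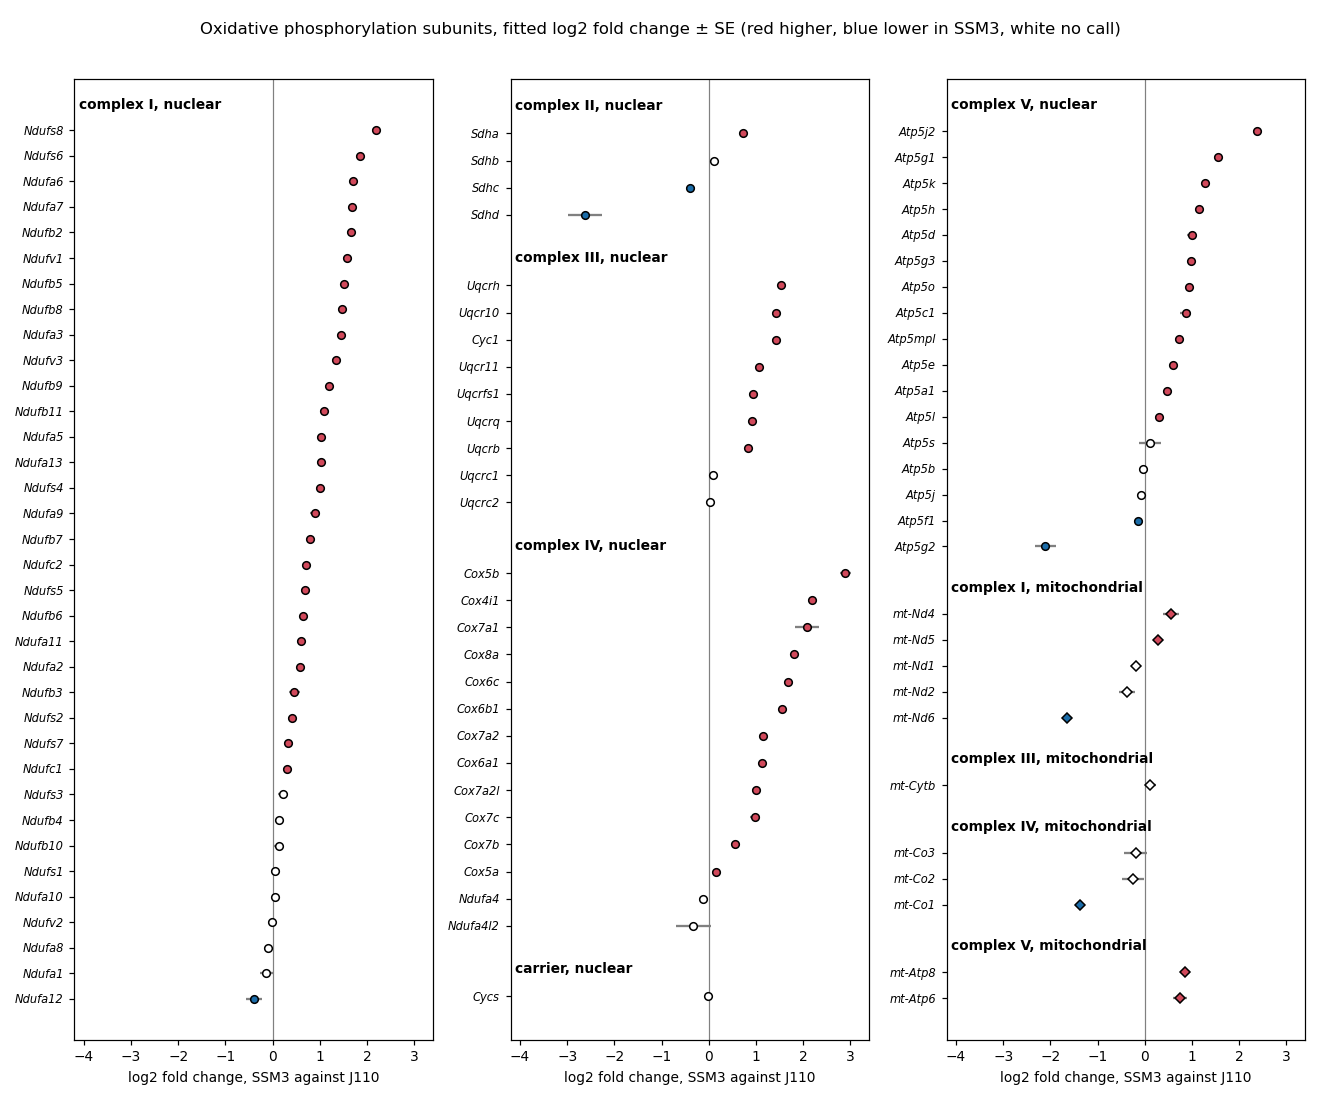
Fitted log2 fold change (SSM3 against J110, horizontal axis) with its standard error for the 91 members tested, by complex and genome, with circles for nuclear-encoded and diamonds for mitochondrially encoded genes. Most circles of complexes I, III, IV and V lie to the right of 0, up to Cox5b at 2.90, while Sdhd (-2.62) and Atp5g2 (-2.11) lie far to the left, and the 11 diamonds lie between -1.64 and 0.86.

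The summed counts showed the same division by genome in every library. Nuclear-encoded members took 1.41%, 1.39% and 1.35% of all counts in the J110 libraries and 2.95%, 2.98% and 2.97% in the SSM3 libraries. The ranges were far apart, and the share of protein-coding counts was 1.74% ± 0.0155 in J110 and 3.14% ± 0.0114 in SSM3 (SD, n = 3), a ratio of 1.80. Mitochondrially encoded members took 3.12%, 2.77% and 2.86% of all counts in J110 and 2.43%, 3.88% and 3.60% in SSM3. Here the lines overlapped, since SSM3 replicate 1 was below all J110 libraries and the other SSM3 libraries were above them. As a share of protein-coding counts the mitochondrially encoded members stood at 3.68% ± 0.199 in J110 and 3.49% ± 0.813 in SSM3, so the difference took the opposite sign. The log2 ratio of nuclear-encoded to mitochondrially encoded counts within a library does not depend on library size, and it was -1.08 ± 0.0748 in J110 and -0.12 ± 0.357 in SSM3, without overlap. The J110 libraries had values from -1.146 to -0.997, and the SSM3 libraries -0.38, -0.28 and, in replicate 1, 0.28. These sums over members were not tested. In bulk RNA, fewer mitochondria, less RNA per mitochondrion and fewer cells of a kind cannot be told apart.

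By complex, nuclear-encoded members of complex I took 0.456% ± 0.00199 of protein-coding counts in J110 and 0.819% ± 0.00502 in SSM3, those of complex III 0.184% ± 0.00234 and 0.349% ± 0.00306, those of complex IV 0.396% ± 0.00292 and 0.863% ± 0.0148, and those of complex V 0.618% ± 0.0105 and 1.023% ± 0.000725 (SD, n = 3). None of these 4 overlapped between the lines. Complex II took 0.0745%, 0.0745% and 0.0706% in J110 and 0.0733%, 0.0759% and 0.0732% in SSM3, which overlapped, with a ratio of 1.01. As shares of all counts the ratios were 2.14, 2.26, 2.60 and 1.97 for complexes I, III, IV and V. For complex II they were 0.0581% ± 0.00253 in J110 and 0.0700% ± 0.00159 in SSM3, a ratio of 1.21 without overlap, so its overlap depends on the denominator.

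**Figure D2:**
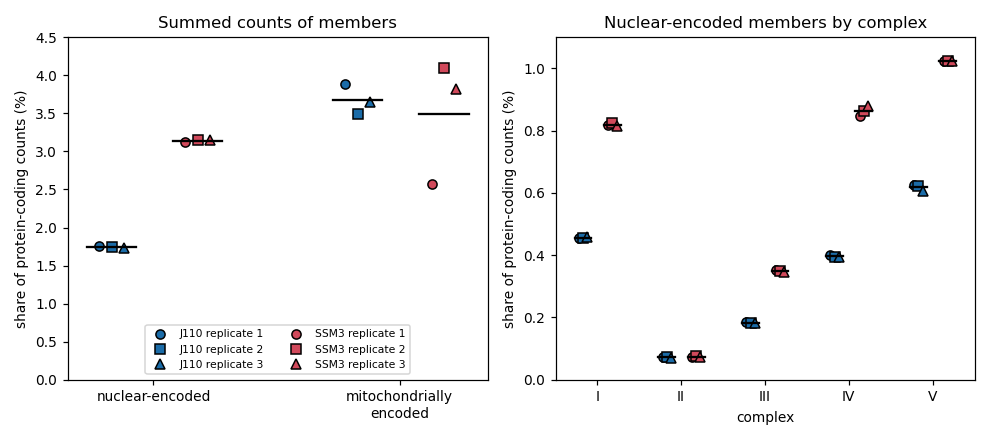
Share of protein-coding counts (%) on nuclear-encoded and mitochondrially encoded members in each library (left), and on nuclear-encoded members of each complex (right), with points for libraries and bars for the mean of 3. The nuclear-encoded shares of the lines are separate in sum and for complexes I, III, IV and V, while, on this denominator, those of complex II and of the mitochondrially encoded members overlap, with SSM3 replicate 1 the lowest library for the latter.

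Complex I, the NADH dehydrogenase, had 26 of 35 nuclear-encoded members higher and 1 lower in SSM3, with a median log2 fold change of 0.70. Its 7 core subunits, which carry the flavin and the iron-sulphur clusters, had 4 higher and a median of 0.33, and the 28 accessory subunits had 22 higher and 1 lower and a median of 0.84. The difference between core and accessory subunits was not tested. Ndufs8, a core subunit that holds iron-sulphur clusters, stood at 45.3, 43.5 and 44.0 CPM (counts scaled to a library of 1000000) in J110 and 194, 220 and 192 in SSM3. The lines were well apart, with a log2 fold change of 2.19 (SE 0.089, adjusted p = 1.08e-12). Ndufs6, an accessory subunit that binds zinc, had 93.1, 85.4 and 105 CPM in J110 and 329, 347 and 342 in SSM3, a log2 fold change of 1.85 (SE 0.083, adjusted p = 4.36e-12). Ndufa6, an accessory subunit of the LYR motif family, had 120, 127 and 121 CPM against 393, 419 and 394 (1.71, SE 0.072, adjusted p = 1.81e-12).

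Not all core subunits were higher. Ndufs1, the largest iron-sulphur subunit, had 610, 703 and 596 counts in J110 and 600, 590 and 694 in SSM3, and Ndufv2, whose protein pairs with that of Ndufv1 in the NADH-oxidising part, had 587, 595 and 625 against 553, 541 and 599 counts. Both overlapped between the lines and had no call (log2 fold changes of 0.060 and -0.016, adjusted p = 0.533 and 0.868), while Ndufv1 was higher (1.58, SE 0.094, adjusted p = 1.56e-10). The remaining nuclear-encoded complex I members without a call were Ndufa1, Ndufa8, Ndufa10, Ndufb4, Ndufb10 and Ndufs3, with log2 fold changes from -0.14 to 0.22. Ndufa12, an accessory subunit, was the lower one at -0.40 (adjusted p = 0.0377). Its counts of 86, 96 and 112 in J110 and 65, 62 and 84 in SSM3 lie close together, and the call was lost under 8 of the alternatives tried, without J110 replicates 2 or 3 or SSM3 replicates 1 or 2 among them (adjusted p from 0.0617 to 0.181). Some 14.6% of its 75-base windows recur in the pseudogene Gm15920, which drew 284, 221 and 236 counts in J110 and 303, 400 and 362 in SSM3.

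Complex II, succinate dehydrogenase, links the TCA cycle to the respiratory chain and did not follow the other complexes. Its catalytic subunits, the flavoprotein Sdha and the iron-sulphur protein Sdhb, differed in their calls. Sdha had 809, 832 and 782 counts in J110 and 1127, 1253 and 1435 in SSM3, a log2 fold change of 0.73 (SE 0.075, adjusted p = 1.66e-07). Sdhb had 1354, 1225 and 1181 against 1163, 1288 and 1379 counts, which overlapped, and no call (0.11, adjusted p = 0.176). The membrane anchors Sdhc and Sdhd, which bind ubiquinone, were both lower. Sdhc had 763, 790 and 663 counts in J110 and 558, 547 and 492 in SSM3 without overlap, a log2 fold change of -0.39 (SE 0.094, adjusted p = 0.00133), and the call was lost with scaling by library size only (-0.21, adjusted p = 0.0634). Sdhd had 319, 313 and 248 counts in J110 and 59, 71 and 4 in SSM3, a log2 fold change of -2.62 (SE 0.36, adjusted p = 4.93e-06), or 6.14-fold higher in J110. The 4 counts of SSM3 replicate 3 stood apart from the other SSM3 libraries, and without it the log2 fold change was -2.04 (adjusted p = 2.52e-12). Among 8302 genes with at least 10 CPM in both other SSM3 libraries, only 8 were below 0.2 times both in replicate 3, and Sdhd was the only member among them. No other library had such a gene. Because QuantSeq reads a single 3′ end, a change of the polyadenylation site was not tested.

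**Figure D3:**
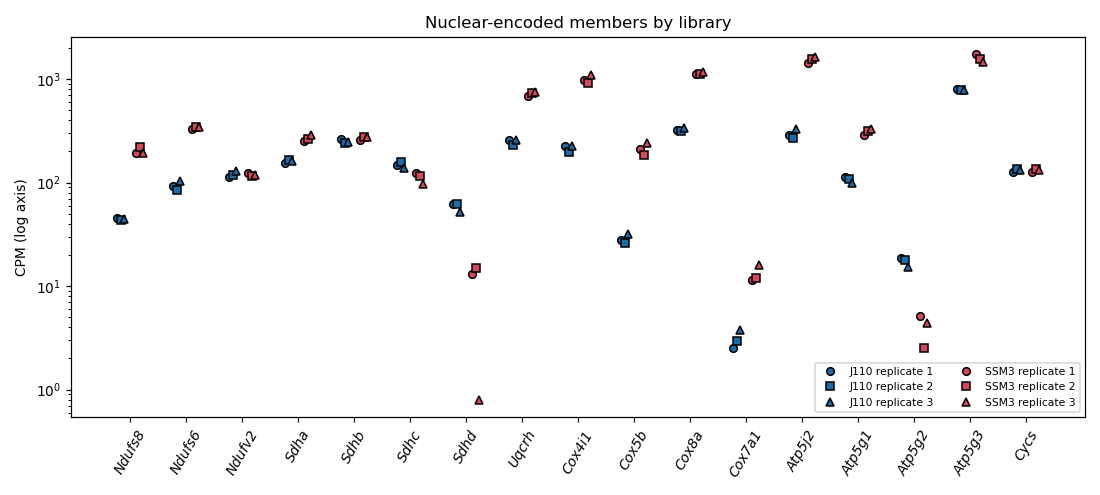
CPM (log axis) of 17 nuclear-encoded members in each of the 6 libraries, in blue for J110 and red for SSM3. Sdhb, Cycs and Ndufv2 overlap between the lines, while Sdha is higher and Sdhc lower in every SSM3 library. Sdhd and Atp5g2 are lower by more than Sdhc, with Sdhd in SSM3 replicate 3 at 0.796 CPM.

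Complex III, the cytochrome bc1 complex, had 7 of 9 nuclear-encoded members higher and 0 lower, with a median log2 fold change of 0.95. Uqcrh, the acidic hinge protein, had 259, 233 and 256 CPM in J110 and 687, 739 and 746 in SSM3 (log2 fold change 1.54, SE 0.072, adjusted p = 6.68e-12). Uqcr10, a small membrane subunit, had 172, 166 and 175 against 451, 464 and 472 CPM (1.43, SE 0.068, adjusted p = 9.35e-12). Cyc1, the cytochrome c1 haem protein that hands electrons to cytochrome c, was higher by almost the same amount, with 327, 304 and 300 counts in J110 and 773, 706 and 888 in SSM3 (1.42, SE 0.089, adjusted p = 3.02e-10). The core proteins Uqcrc1 and Uqcrc2 had no call, with log2 fold changes of 0.092 and 0.034 and overlapping libraries. Cycs, the soluble cytochrome c that carries electrons to complex IV, had 661, 683 and 637 counts in J110 and 564, 635 and 665 in SSM3. Its log2 fold change was -0.0094 (SE 0.077, adjusted p = 0.914), with the lines overlapping.

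Complex IV, cytochrome c oxidase, had the highest median of the complexes, 1.135, with 12 of its 14 tested nuclear-encoded members higher and 0 lower. Cox5b, a zinc-binding subunit, had 27.8, 26.1 and 31.7 CPM in J110 and 213, 185 and 239 in SSM3. Its log2 fold change of 2.90 (SE 0.11, adjusted p = 6.12e-13), or 7.45-fold, was the largest of the 91 members. Cox4i1, the broadly expressed form of a subunit that binds adenine nucleotides, had 223, 198 and 228 against 978, 907 and 1088 CPM (2.20, SE 0.083, adjusted p = 4.56e-13). Cox4i2, its lung and hypoxia form, had 0 counts in all 6 libraries, which allows up to 3 counts, or 0.578 to 0.668 CPM per library. The ubiquitous Cox8a was higher as well, with 323, 316 and 340 against 1124, 1115 and 1176 CPM (1.80, SE 0.067, adjusted p = 3.53e-13), and its heart and testis forms Cox8b and Cox8c had 0 counts throughout.

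Several subunits of complex IV come as a broadly expressed and a tissue form, and the broadly expressed forms carried the counts in both lines. Cox6a1 (1.13), Cox6b1 (1.56), Cox7a2 (1.143) and Cox7b (0.55) were each higher in SSM3, as was Cox7a2l (0.99), with adjusted p between 1.06e-11 and 1.99e-06. The forms of muscle or testis, Cox6a2, Cox6b2 and Cox7b2, had at most 1 count in a library. Cox7a1, the heart and muscle form, was the exception, with 13, 15 and 18 counts in J110 and 51, 56 and 80 in SSM3, a log2 fold change of 2.09 (SE 0.25, adjusted p = 1.05e-06) on few counts. Of 8 skeletal or cardiac muscle markers, 5 had 0 counts in all libraries, Mb had 0, 0 and 0 counts in J110 and 82, 100 and 142 in SSM3, and Tnnt2 had 1493, 1515 and 1613 in J110 and 7, 11 and 5 in SSM3. The summed muscle markers ranged from 290 to 339 CPM in J110 and from 20.04 to 29.3 CPM in SSM3, which is opposite to Cox7a1, and their part in its value was not tested. Ndufa4, a complex IV subunit despite its name, had 774, 640 and 696 against 587, 562 and 702 counts and no call (-0.11, adjusted p = 0.264), and its hypoxia-induced relative Ndufa4l2 had 9 to 23 counts per library and no call.

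Complex V, the ATP synthase, had 12 of 17 members higher and 2 lower, with a median of 0.72. Atp5j2, subunit f of the membrane part, had 289, 271 and 330 CPM in J110 and 1426, 1564 and 1616 in SSM3, a log2 fold change of 2.37 (SE 0.083, adjusted p = 1.77e-13). Atp5k, subunit e, which takes part in forming dimers, had 257, 268 and 262 against 581, 660 and 667 CPM (1.28, SE 0.073, adjusted p = 9.26e-11). All 4 members of the membrane part outside the ring were higher, with a median of 0.997. In the catalytic F1 head 4 of 5 were higher, and Atp5b, the catalytic beta subunit, had no call at 4756, 4441 and 4409 counts in J110 and 4144, 3960 and 4475 in SSM3 (-0.033, adjusted p = 0.656). Of the peripheral stalk, 2 of 4 were higher, Atp5j had no call (-0.076, adjusted p = 0.416) and Atp5f1 was just past the threshold as lower (-0.15, adjusted p = 0.0468), a call that was lost without J110 replicate 2 or any 1 SSM3 library (adjusted p from 0.0754 to 0.129) and took the opposite sign with scaling by library size only. Atp5s had 25 to 33 counts per library and no call.

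The proton-carrying c ring is made from 3 genes whose mature proteins are identical, and these did not move together. Atp5g1 was higher in SSM3, with 590, 542 and 470 counts in J110 and 1294, 1484 and 1642 in SSM3 (1.54, SE 0.082, adjusted p = 3.87e-11). Atp5g3 was also higher, with 4199, 4000 and 3771 against 7751, 7339 and 7311 counts (0.99, SE 0.073, adjusted p = 2.57e-09). Atp5g2 was lower, with 96, 91 and 74 counts in J110 and 23, 12 and 22 in SSM3 (-2.11, SE 0.23, adjusted p = 3.43e-07), and the lines did not overlap for any of the 3 genes. Some reads of Atp5g2 could be split with pseudogenes, since 35.8% of its windows recur in Gm10175, which had 1 to 5 counts per library.

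Before the mitochondrial genes are compared, 75-base stretches near their 3′ ends are shown, because a read of this length cannot be placed where the nuclear genome holds the same letters. The first 3 recur without a mismatch in a nuclear pseudogene on chromosome 1, and the last 2 do not recur in any other annotated transcript. For mt-Co2, mt-Co3 and mt-Nd3 the final 75 bases, which follow the stretches shown, do not recur whole in another annotated transcript. The stretches shown were read 5′ to 3′ from the GENCODE transcripts of GRCm38 and lie on the plus strand. They are wholly in lower case since no base is singled out.
mt-Co2, chrM:7547-7621, also in Gm28661: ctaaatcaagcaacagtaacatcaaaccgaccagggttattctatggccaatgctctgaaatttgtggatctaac
mt-Co3, chrM:9241-9315, also in Gm28437: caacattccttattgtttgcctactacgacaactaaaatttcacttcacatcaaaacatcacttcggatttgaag
mt-Nd3, chrM:9657-9731, also in Gm28438: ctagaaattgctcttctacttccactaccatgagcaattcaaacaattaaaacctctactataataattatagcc
mt-Nd4, chrM:11395-11469: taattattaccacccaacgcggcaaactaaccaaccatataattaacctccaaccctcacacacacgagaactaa
mt-Cytb, chrM:15139-15213: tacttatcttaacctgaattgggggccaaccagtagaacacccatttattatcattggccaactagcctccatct

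The share of windows found in the chromosome 1 copy was 99.5% for mt-Co2, 99.9% for mt-Co3, 99.5% for mt-Atp6, 97.8% for mt-Nd3 and 98.7% for mt-Nd4l. These 5 genes had the lowest counts per kilobase of the 13, from 0 to 488 in any library, where mt-Nd4, mt-Nd1 and mt-Cytb had from 19532 to 54390. The copy was not the same as a low count in every gene, since the last 150 bases of mt-Co1 also recur in it and mt-Co1 had 3307 counts per kilobase or more. How reads that fit several places were counted is not given in the sources used here, and the levels of the 5 genes should be read with that limit. With each of these genes summed with its chromosome 1 copy, mt-Atp6 lost its call (0.21, adjusted p = 0.208), mt-Co3 was called lower (-0.66, adjusted p = 0.00274), mt-Nd3 could be tested and was called lower (-1.26, adjusted p = 8.54e-05), and mt-Co2 stayed without a call (-0.27, adjusted p = 0.273).

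Mitochondrially encoded members differed among themselves although they are transcribed from shared long precursors. mt-Nd4, a membrane subunit of complex I, had 49600, 42678 and 40184 counts in J110 and 36510, 74250 and 74949 in SSM3. SSM3 replicate 1 was below all J110 libraries by CPM (8130 against 8385 to 9562), and the other SSM3 libraries were above them at 15768 and 14914. The log2 fold change was 0.56 (SE 0.17, adjusted p = 0.00634), and the call was lost with DESeq2 (adjusted p = 0.0641) and without SSM3 replicate 2 (0.40, adjusted p = 0.0547). mt-Nd4 made up 28.4% ± 1.24 of the counts of the mitochondrially encoded members in J110 and 40.9% ± 4.41 in SSM3 (SD, n = 3).

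mt-Co1, the catalytic subunit of complex IV that reduces oxygen, had 19692, 18067 and 17913 counts in J110 and 5110, 7133 and 8226 in SSM3. The lines did not overlap, and the log2 fold change was -1.37 (SE 0.10, adjusted p = 3.56e-09), against the direction of 12 of the 14 tested nuclear-encoded members of the same complex. mt-Nd6, the only mitochondrially encoded member of the light strand, stood at 6579, 5512 and 5105 counts in J110 and 1390, 1988 and 1850 in SSM3, a log2 fold change of -1.64 (SE 0.10, adjusted p = 2.28e-10). Both share bases with a gene of the other strand, mt-Co1 with the tRNA gene mt-Ts1 (3 bases) and mt-Nd6 with mt-Nd5 (14 bases). mt-Ts1 had 24622, 22729 and 23324 counts in J110 and 3931, 5447 and 7167 in SSM3, so it moved with mt-Co1, and since the strand setting of the counting is not given, reads of such pairs cannot be told apart.

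The subunits of complex V were both higher. mt-Atp8, a small subunit that has no copy among the annotated transcripts, had 464, 402 and 416 counts in J110 and 564, 774 and 870 in SSM3 (0.86, SE 0.11, adjusted p = 2.01e-06). mt-Atp6, the subunit that forms the proton path with the c ring, had 202, 157 and 174 against 199, 323 and 332 counts (0.75, SE 0.15, adjusted p = 0.000174), with the reservation on its copy given above. mt-Nd5 was called higher at 0.28 (SE 0.10, adjusted p = 0.0198), with overlapping libraries, and lost the call without any 1 of J110 replicates 2 and 3 and SSM3 replicates 2 and 3 (adjusted p from 0.0507 to 0.116).

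The other members encoded in mitochondria had no call or no test. mt-Nd1 had 45628, 41011 and 39917 counts in J110 and 27887, 37744 and 39488 in SSM3 (-0.19, adjusted p = 0.0673), and mt-Nd2 had 12354, 10398 and 16080 against 6487, 10144 and 12267 (-0.37, adjusted p = 0.0553). Both were called lower under 4 of the alternatives. mt-Cytb, the catalytic cytochrome b of complex III, had 32791, 28175 and 27493 against 22345, 36264 and 32444 counts and overlapped (0.12, adjusted p = 0.367). mt-Co2 had 33 to 78 counts per library and mt-Co3 19 to 37, with log2 fold changes of -0.25 and -0.20 and no call. mt-Nd3 had 2 to 7 counts and mt-Nd4l 0 to 3, and neither passed the filter.

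**Figure D4:**
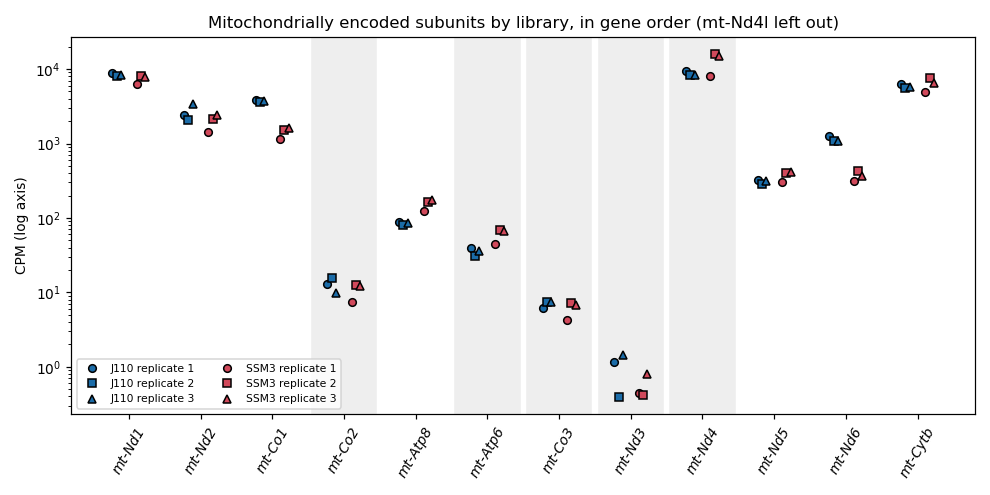
CPM (log axis) of the mitochondrially encoded members in each library, in their order along the mitochondrial genome, without mt-Nd4l, with grey bands where at least 50% of the 75-base windows recur in another annotated gene. The bands hold the low genes mt-Co2, mt-Atp6, mt-Co3 and mt-Nd3 and also mt-Nd4 (61.5% of windows), one of the highest, and only mt-Co1, mt-Nd6, mt-Atp6, mt-Atp8 and mt-Nd1 separate the lines without overlap.

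Members that overlap other genes carry a further limit. Exons of 38 members share bases with another gene, and for 13 of them the other gene had at least 80% of the member's counts in some library. Among these, Cox5a had 3467, 3631 and 3203 counts in J110 while Gm26631, which lies antisense to it, had 3413, 3578 and 3160. Its call as higher rests on a log2 fold change of 0.15 (adjusted p = 0.0387) and was lost in 8 of the alternatives, without J110 replicates 1 or 3 or SSM3 replicates 2 or 3 among them (adjusted p from 0.0545 to 0.162). Uqcrc2 with Pdzd9, Ndufb6 with Smim27 and Ndufb5 with Mrpl47 were of the same kind. Of the 55 tested members that share no exons, 38 were higher and 3 lower (69.1% and 5.45%), close to the shares over all 91 tested members.

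Small genes were frequent among the nuclear-encoded members, so the values were set beside genes of like coding length. Under 400 bases of coding sequence, 83.8% of 37 members and 54.2% of 544 other protein-coding genes were called higher in SSM3. Between 400 and 800 bases these shares were 64.3% of 28 and 46.1% of 1944, and at 800 bases or more they were 9 of 15 and 36.0% of 8577. Members were above the other genes in each class, and shorter genes were called higher more often in both sets. Across genes, Spearman's rho between log2 fold change and coding length was -0.21 over 80 members and -0.12 over protein-coding genes, and with mean log2 CPM it was 0.36 and 0.072. Genes share libraries and are not independent replicates.

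Promoters of respiratory chain genes are known for sites of the nuclear respiratory factors NRF1 and GABP, of the estrogen-related receptors (ERR) and of YY1. Promoter sequence from RefSeq (GRCm38.p6), 250 bases before to 50 after the start, was matched for 69 of the 86 nuclear-encoded members, and 4 motifs were searched on both strands. The NRF1 motif, whose letters stand in capitals in the windows below, was in 7.25% of members and 1.07% of 27025 genes, the YY1 motif in 7.25% and 0.995%, the GABP motif CCGGAAG in 23.2% and 9.93%, and the ERR motif TCAAGGTCA in 2.90% and 0.466%. The motifs were more frequent in members than among all genes and had no common relation to the size of the difference. The median log2 fold change was 0.60 with and 0.94 without the NRF1 motif, 0.90 with and 0.94 without the YY1 motif, 0.93 with and 0.92 without the GABP motif, and -0.82 with and 0.92 without the ERR motif, which only Atp5g3 and Sdhd held. A match is a description of letters and no evidence of binding. Of the 5 members with the NRF1 motif, Uqcrc1 had no call (log2 fold change 0.092, adjusted p = 0.35) and its window is not shown. The upstream windows of the other 4 members (motif in capitals) are shown on the strand of the gene. These members were higher and, for Atp5g2, lower in SSM3.
Cox6a1, chr5:115349051-115349180, minus strand: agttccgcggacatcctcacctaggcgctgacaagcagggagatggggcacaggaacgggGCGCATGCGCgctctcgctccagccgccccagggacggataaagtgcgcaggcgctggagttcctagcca
Atp5k, chr5:108434400-108434509, minus strand: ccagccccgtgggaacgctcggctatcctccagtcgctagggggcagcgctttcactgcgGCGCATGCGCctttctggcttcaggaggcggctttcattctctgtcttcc
Ndufa11, chr17:56717642-56717761, plus strand: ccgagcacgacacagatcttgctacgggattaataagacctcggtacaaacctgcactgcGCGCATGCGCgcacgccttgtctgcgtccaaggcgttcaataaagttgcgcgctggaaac
Atp5g2, chr15:102671048-102671149, minus strand: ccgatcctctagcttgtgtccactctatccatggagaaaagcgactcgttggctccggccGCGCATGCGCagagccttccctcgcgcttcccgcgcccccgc

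For lists of regulators and partners of the complexes, counts of calls are read against the 38.6% higher and 39.2% lower of all genes tested, and differences between lists were not tested. Of 12 tested regulators of mitochondrial biogenesis, 5 were higher and 4 lower (41.7% and 33.3%). Ppargc1a, the coactivator PGC-1α, had 44, 33 and 47 counts in J110 and 106, 134 and 151 in SSM3 (log2 fold change 1.73, SE 0.18, adjusted p = 1.39e-07). Its partner Esrra, an estrogen-related receptor, was also higher (1.03, SE 0.10, adjusted p = 1.03e-07), while Ppard, a fatty acid sensing receptor, was lower (-1.49, SE 0.12, adjusted p = 1.08e-08). Nrf1 had no call at 164, 132 and 137 against 122, 129 and 115 counts (-0.16, adjusted p = 0.282). Ppargc1b had 12, 9 and 14 counts in J110 and 2, 3 and 1 in SSM3 and did not pass the filter.

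Of 29 tested genes of mitochondrial DNA maintenance and transcription, 8 were higher and 13 lower (27.6% and 44.8%, the latter near the share of all genes tested). Tfam, which packages mitochondrial DNA and starts its transcription, had 254, 239 and 221 counts in J110 and 155, 162 and 172 in SSM3 (-0.47, SE 0.10, adjusted p = 0.000466). The helicase Twnk was higher (1.35, adjusted p = 1.98e-06). Ssbp1, the single-strand binding protein of mitochondrial DNA, was lower (-0.93, adjusted p = 0.00127), and so was Trmt10c, part of the enzyme that cuts tRNAs out of mitochondrial precursors, with 119, 116 and 109 against 48, 46 and 21 counts (-1.49, adjusted p = 1.58e-05).

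Complex I assembly had 5 of 15 higher and 1 lower (33.3% and 6.67%), or 4 of 14 and 1 without Ndufab1, which is itself a subunit. Its largest change was that of Ndufaf1, at 22, 20 and 27 against 101, 113 and 104 counts (2.28, SE 0.19, adjusted p = 1.3e-08), with Ndufaf8 (1.13) and the acyl carrier protein Ndufab1 (0.87) also higher. Assembly of complexes II to V had 21 of 37 higher and 9 lower (56.8% and 24.3%). Higd2a, which takes part in building complex IV and supercomplexes, had 297, 244 and 282 counts in J110 and 1109, 1136 and 1323 in SSM3 (2.19, SE 0.090, adjusted p = 1.34e-12), and Coa7 (1.86) and the complex II factor Sdhaf1 (1.65, with 59, 54 and 65 against 151, 185 and 193 counts) were higher too.

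Neighbouring pathways had calls in both directions, as all genes tested did. The TCA cycle had 4 of 14 higher and 6 lower (28.6% and 42.9%), with the succinyl-CoA ligase subunit Sucla2 (-2.19) and the dehydrogenase subunit Dld (-0.96) among those lower. The list of outer membrane and carrier genes, which also holds inner membrane and matrix proteins such as Timm44, had 8 of 19 higher and 7 lower. Vdac3, Timm44 and Tomm22 were higher by 1.11, 1.13 and 0.83. Ubiquinone synthesis had 5 of 13 higher and 5 lower, with Coq9 higher (1.40) and Coq8a (-1.17) and Pdss1 (-1.07) lower. For cytochrome c and haem, 4 of 9 were higher and 3 lower, with Ppox higher (1.81) and Cpox (-1.43) and Hccs (-0.92), which attaches haem to cytochrome c, lower. The routes that bring electrons to ubiquinone without complexes I and II had 3 of 8 higher and 5 lower. There Etfa, an electron carrier of fatty acid oxidation, had 462, 453 and 418 counts in J110 and 153, 129 and 107 in SSM3 (-1.69, SE 0.13, adjusted p = 2.72e-09), Etfdh was lower by -1.12, and Gpd2, the glycerol phosphate shuttle enzyme, had 1006, 918 and 923 against 322, 345 and 361 counts (-1.39, SE 0.079, adjusted p = 8.68e-11).

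**Figure D5:**
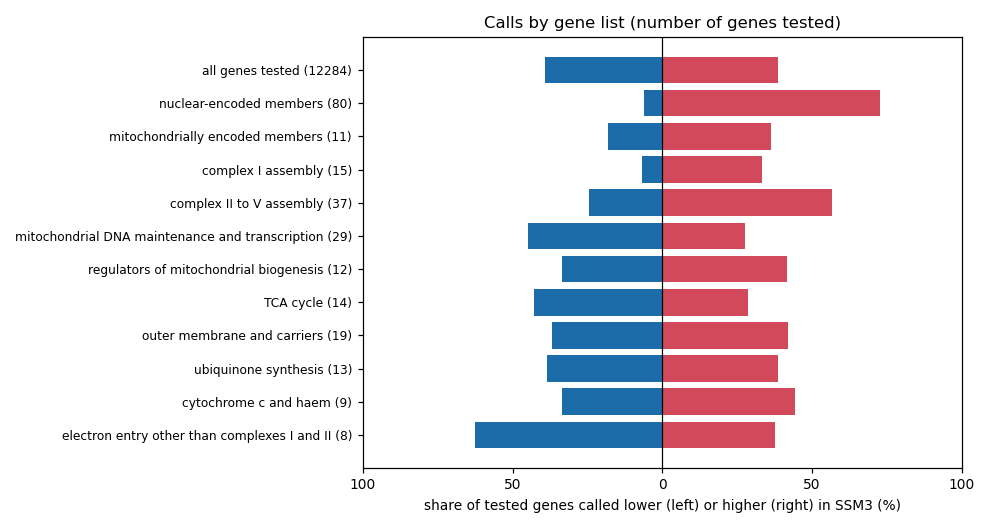
Share of tested genes (%) called lower (blue, left) or higher (red, right) in SSM3, for all genes tested, the members by genome and the 9 lists of related genes, with the number tested in brackets. The nuclear-encoded members have the longest bar to the right (58 of 80) and a short bar to the left, the list of assembly factors of complexes II to V follows with 21 of 37, and the other lists have bars on both sides, longer to the left for mitochondrial DNA maintenance and transcription, the TCA cycle and the other electron entry routes.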

How the data were processed

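RNA of J110 and SSM3 cells (n = 3 each) was measured as 3′ tag counts. Per the labels and the methods of the study, the authors demultiplexed with bcl2fastq 2.17.1.14, trimmed with cutadapt 2.1, mapped reads to mm10 with HISAT2 2.0.4 and counted them per gene with featureCounts (Subread 2.0.0). The deposited values are raw counts, with no normalisation. The setting for strand and for reads with several places is not given in the sources used here.

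Identifiers were matched to the GENCODE annotation of GRCm38 (52489 of 52636), which gave symbols, positions and exons. Genes were filtered with filterByExpr, scaled by TMM and compared by quasi-likelihood in edgeR 4.0.16 (R 4.3.3) with line as the only term, and p-values were adjusted by Benjamini-Hochberg over all 12284 genes tested with a threshold of 0.05. CPM use TMM-scaled library sizes. The biological coefficient of variation was 8.30%. Replicate libraries of a line differed by more than counting noise (chi-square per degree of freedom of 2.27 to 5.85). On simulated counts, with 12003 genes tested, 94.4% of 107 genes changed by 1 log2 unit and 100% of 93 changed by 2 were recovered, with 11 false calls. The simulation changed only these genes, chosen above a count floor. It used 1 dispersion for all genes and no difference in the ribosomal RNA locus. In the data 77.9% of genes tested were called, so these rates show that the code works and do not give the error of this comparison. At these depths 3 counts are 0.578 to 0.668 CPM, which covers counting error only.

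The members and the lists of related genes were chosen with earlier results of these data known. Named are all mitochondrially encoded members, Sdh genes, Cyc1, Cycs, tissue isoforms and their partners, members without a call or a test, in each complex the 3 called members with the largest change in each direction at a mean of at least 10 CPM without overlap, the 3 such genes of each list, and Ppargc1a, Ppargc1b, Tfam and Nrf1. Some genes chosen by this rule or by the check of the labels are not reported here. Any other gene named was picked with its values in view. Copies were sought as exact 75-base windows, and shared exons with bedtools 2.31.1. Alternatives were DESeq2 1.42.0, limma-voom (limma 3.58.1), other scalings and filters, a fold threshold (glmTreat), a replicate block, removal of each library, and members summed with copies. Copy sums, the removal of members by the counts of an overlapping gene and the ratio without single mitochondrial genes were chosen after the data were seen.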

Additional observations from a re-analysis of the deposited data

Results flagged for a closer look

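Mitochondrial tRNA and ribosomal RNA genes are no members and were outside the comparisons above, but they were counted, and 8 tRNA genes had a difference larger than that of any mitochondrially encoded subunit (mt-Nd6, -1.64), of which the 3 with the largest are given. mt-Te, the neighbour of mt-Nd6, stood at 2431, 2549 and 2660 counts in J110 and 116, 138 and 206 in SSM3, a log2 fold change of -3.98. mt-Tt had 255, 274 and 230 against 13, 22 and 26 counts (-3.55), and mt-Tp had 777, 800 and 834 against 148, 125 and 166 (-2.38). In each the lines were far apart. Of 16 tRNA genes tested, 15 were called lower in SSM3 and 0 higher, against 39.2% lower and 38.6% higher over all genes tested. The tRNA genes lie beside one another and beside members on shared precursors, so their calls are not separate observations. Of both ribosomal RNA genes mt-Rnr2 was lower (-1.67) and mt-Rnr1 had no call (0.062). As shares of all counts, tRNA genes took 0.641% ± 0.0143 in J110 and 0.233% ± 0.0435 in SSM3, and ribosomal RNA genes 1.001% ± 0.112 and 0.450% ± 0.0390 (SD, n = 3). The tRNA share leans on mt-Ts1, which had the most counts of these genes in every library (24622, 22729 and 23324 against 3931, 5447 and 7167). mt-Ts1 shares bases with mt-Co1, and their reads cannot be told apart. A 3′ protocol is not made for such RNAs, and reads of neighbouring genes can reach into them, which was not tested.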

How the results depend on the processing

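Of 91 members tested, 51 kept their direction and call under every alternative, 19 lost a call and 14 gained one under at least 1. The most calls, 19, were lost by asking for more than 1.5-fold. Scaling by library size only moved the median of all genes by 0.175 on the log2 scale. Under it 71 members were higher and 4 lower (43.7% and 33.7% of all genes tested), 2 of the lower nuclear-encoded, and the medians were 1.02 for nuclear-encoded members and 0.88, 0.036, 1.13, 1.31 and 0.89 for complexes I to V. With the fold threshold 46 members were higher and 4 lower (25.4% and 26.2% of all genes tested). Members called lower were 3 of 55 without members that share exons, where 38 were higher. Nuclear-encoded members called lower were 3 with DESeq2 (36.8% of all genes tested) and 3 with a filter of 1 count (25.2%), and mitochondrially encoded ones 4 with that filter and 4 summed with copies. Without members that share exons the medians were 0.91 for nuclear-encoded members, 1.07 for complex III and 0.93 for complex V, and without members whose overlapping gene had 80% of their counts 0.90, 0.74, 1.01 and 1.35 for nuclear-encoded members and complexes I, III and IV. The median of complex II was 0.089 with 10 counts asked for in every library, which removed Sdhd. The mitochondrial share (SSM3 minus J110) was 0.388 percentage points of all counts, -0.182 of protein-coding counts and -0.138 without the ribosomal RNA locus, and the log2 ratio difference was 0.95, or 1.23 without mt-Nd4. The cause of these shifts was not tested beyond what each alternative changes.

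Leaving out each library in turn gave 59 to 64 members higher and 6 to 8 lower, 57 to 59 and 3 to 5 nuclear-encoded, and 2 to 5 and 2 to 4 mitochondrially encoded. Medians ranged from 0.77 to 0.87 for nuclear-encoded and from -0.25 to 0.0050 for mitochondrially encoded members, and for complexes I to V from 0.66 to 0.75, -0.18 to -0.099, 0.91 to 1.03, 1.12 to 1.17 and 0.67 to 0.76. The mitochondrial share difference ranged from 0.0982 to 0.826 and the ratio difference from 0.75 to 1.08, and the related lists had 62 to 64 higher and 51 to 55 lower.

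Signs reversed in 15 members, of which Atp5f1 alone had a call. With library size only the log2 fold changes were 0.040 for Ndufa1, 0.073 for Ndufa8, 0.16 for Ndufv2, 0.064 for Ndufa4, 0.14 for Atp5b, 0.025 for Atp5f1, 0.098 for Atp5j and 0.17 for Cycs. With a filter of 1 count Ndufv2 was at 0.0050 and Cycs at 0.011. Leaving out each library in turn gave -0.0060 to 0.12 for Ndufs1, -0.072 to 0.034 for Ndufv2, -0.0032 to 0.15 for Uqcrc1, -0.033 to 0.10 for Uqcrc2, -0.63 to 0.027 for Ndufa4l2, -0.027 to 0.19 for Atp5s, -0.033 to 0.27 for mt-Cytb, -0.33 to 0.0050 for mt-Co3, -0.32 to 0.038 for Ndufa1, -0.064 to 0.0088 for Atp5b and -0.046 to 0.025 for Cycs.

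Replicate numbers are shared between the lines by name only. Deviations of same-numbered libraries correlated with r = 0.012, 0.015 and 0.027, too little to pair them, although every library correlated best with its own number. With the replicate block, 61 members were higher and 7 lower (38.3% and 38.9% of all genes tested), Atp5f1 and Cox5a lost their calls and mt-Nd2 was called lower. Depth limits the tissue isoforms, where 3 counts or fewer cannot be told from absence.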
